A study of Mus musculus with 9 samples.

Results

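The Hox genes of the A, B, C and D clusters were described in whole pancreas of mouse embryos at stage e15.5. They were taken as every gene symbol that begins with Hox, goes on with a cluster letter and ends with a paralog number, which gave 39 of the 23231 symbols in the tables. The A cluster held 11 of them, on chromosome 6, the B cluster 10, on chromosome 11, the C cluster 9, on chromosome 15, and the D cluster 9, on chromosome 2 (mm9). RNA sequencing libraries were made from the total RNA of Blinc1-/- (KO), Blinc1+/- (Het) and wild-type (WT) embryos, with 3 libraries in each group and a mixed c57bl/6 and 129sv background in all 9. Blinc1 makes a long noncoding RNA and lies near Nkx2-2, which encodes a transcription factor of islet cells. How the mutant allele was made is not given in the sources used here, and Blinc1 was not analysed here under that name, so the genotypes stand as labelled.

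Hox genes encode homeodomain transcription factors that give cells their position along the head-to-tail axis of the embryo. Within a cluster the genes lie in the order of their paralog numbers, low numbers being used further forward in the body and high numbers further back, in the tail, limbs and urogenital system. Genes with the same number in different clusters are paralogs and encode similar proteins. Retinoic acid activates low-numbered genes in many embryonic tissues, Polycomb proteins keep clusters silent, and proteins of the Pbx and Meis families bind DNA together with Hox proteins. In gut-derived organs Hox RNA is known mainly from the mesenchyme and the nerves, and less from the epithelium.

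The promoters of 3 members are shown because the results below turn on them: Hoxa5, the member with the highest level, Hoxd8, the member with the smallest p against WT, and Hoxd13, a member listed near 0 in most libraries. Each runs from 250 bases before to 50 bases after the transcript start in RefSeq, on GRCm38.p6, a later build than the mm9 of the expression tables. Hoxa5 is at chr6:52204538-52204837 on the minus strand, Hoxd8 at chr2:74704365-74704664 and Hoxd13 at chr2:74667975-74668274, both on the plus strand. Capitals mark matches, on either strand, to the CCAAT box, to the letters AGGTCA or to the TATA box, whose letters are TATAAA.
Hoxa5: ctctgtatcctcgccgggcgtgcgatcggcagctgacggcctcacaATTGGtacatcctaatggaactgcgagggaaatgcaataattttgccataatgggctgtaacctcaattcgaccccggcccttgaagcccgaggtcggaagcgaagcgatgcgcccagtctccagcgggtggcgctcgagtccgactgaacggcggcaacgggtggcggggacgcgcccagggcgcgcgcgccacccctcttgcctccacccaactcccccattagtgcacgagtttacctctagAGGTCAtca
Hoxd8: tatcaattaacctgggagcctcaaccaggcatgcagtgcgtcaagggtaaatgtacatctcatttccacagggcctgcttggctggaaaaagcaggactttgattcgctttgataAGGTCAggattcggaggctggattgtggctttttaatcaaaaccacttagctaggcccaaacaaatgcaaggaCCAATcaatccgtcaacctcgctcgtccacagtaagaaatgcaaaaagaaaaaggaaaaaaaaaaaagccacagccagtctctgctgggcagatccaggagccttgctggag
Hoxd13: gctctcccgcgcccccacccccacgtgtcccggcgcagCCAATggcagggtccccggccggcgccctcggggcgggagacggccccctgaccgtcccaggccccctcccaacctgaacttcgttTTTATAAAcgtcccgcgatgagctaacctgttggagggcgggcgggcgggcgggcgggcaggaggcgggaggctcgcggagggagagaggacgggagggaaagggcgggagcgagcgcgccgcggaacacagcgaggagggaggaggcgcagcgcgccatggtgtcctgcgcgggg

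The RefSeq table held 24 promoters for 22 of the 39 genes, with Hoxa10 and Hoxd11 repeated. Most were of the A and D clusters. The B cluster entered only by Hoxb1, Hoxb4 and Hoxb8 and the C cluster only by Hoxc4, so the shares below do not stand for all 39 genes. CCAAT, the letters of the CCAAT box, was found on either strand in 62.5% of the 24 Hox promoters and in 37.4% of all 32851 promoters of that length. AGGTCA, the core bound by retinoic acid receptors and other nuclear receptors, was in 29.2% of the Hox promoters and in 16.3% of all promoters. TATAAA was in 16.7% of the Hox promoters and 13.6% of all promoters, and the Pbx-Hox core TGATNNAT in 16.7% of the Hox promoters and 8.85% of all. TTTATNG, a Cdx-type site, was in 8.33% of the Hox promoters and 10.9% of all, and TGACAG, the Meis core, in 8.33% of the Hox promoters and 19.2% of all. These are matches of letters and were not tested. The Hoxd13 window had 37 CG dinucleotides and the Hoxa5 window 29, against 6 in the Hoxd8 window. Hoxd13, the lowest of these 3 members in level, thus had the most CG of them.

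Levels are in FPKM, fragment numbers scaled to transcript length and sequencing depth, so that members of different length can be compared. The confidence bounds in the tables imply 19532984 to 25437255 fragments per library, and all libraries ranked genes alike (Spearman 0.978 to 0.992 between pairs). Xist RNA showed that all 3 KO libraries were from females, as were 1 Het and 1 WT library, so sex and genotype overlap in part. In bulk tissue, fewer cells of a type and less RNA per cell cannot be told apart. Whether each library is a different embryo is not stated in the labels, so a p here measures only the spread among libraries. Nkx2-2 was at 24.9, 6.08 and 5.48 FPKM in KO libraries, 6.37, 18.99 and 13.4 FPKM in Het libraries and 15.2, 21.7 and 25.5 FPKM in WT libraries. KO replicate 1 and Het replicate 1 therefore stood apart from the rest of their groups, and results are also given without them.

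The pancreas transcribed the low-numbered and middle Hox genes at low levels and the high-numbered ones hardly at all. Of the 39 members, 15 had a mean of 1 FPKM or more over the 9 libraries, and 22 were above 0 in every library. A further 14 were above 0 in some libraries, and Hoxb13, Hoxc12 and Hoxc13 were listed at 0 in all. In all, 17 members reached 1 FPKM in at least 3 libraries and were tested: 4 in the A cluster, 7 in B, 4 in C and 2 in D. All of them lie in paralog groups 2 to 8, which have 20 members; the 3 others there are Hoxa6, Hoxa7 and Hoxd3. The filter kept a member only where some libraries were high, so these 17 do not stand for all 39.

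**Figure D1:**
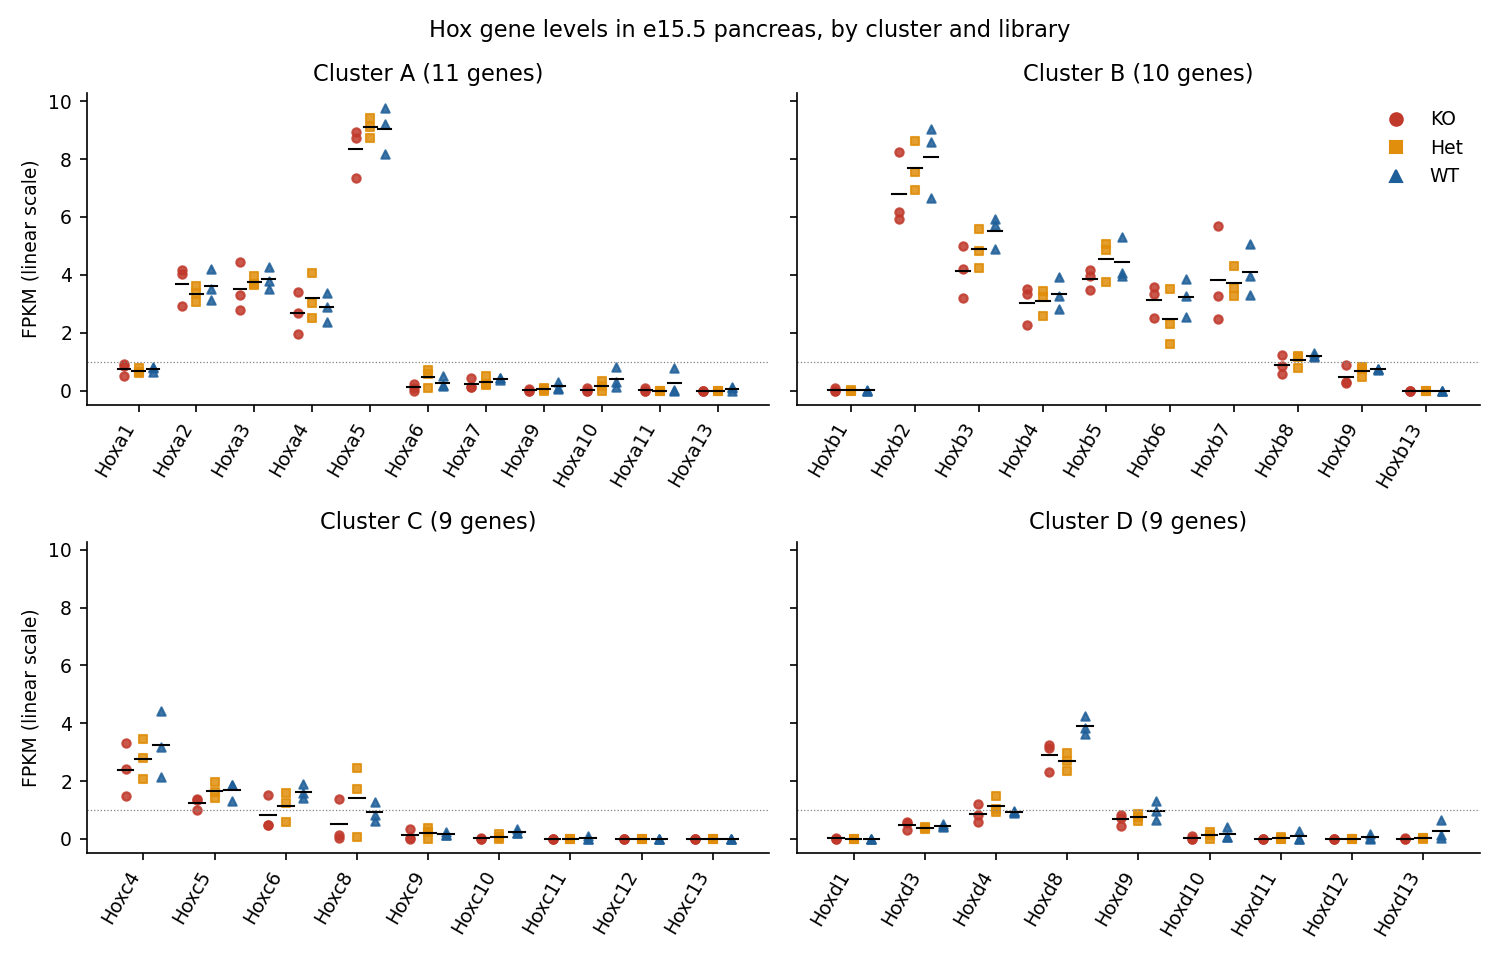
Level of each of the 39 Hox genes in FPKM (linear scale), in 1 panel per cluster; points are libraries (circles KO, squares Het, triangles WT), black bars are group means and the dotted line is at 1 FPKM. Hoxa5 and Hoxb2 are the highest, and the means over all libraries in paralog groups 9 to 13 are below 1 FPKM.

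Hoxa5 (chromosome 6, 52151753 to 52154586, minus strand), which is needed for lung and gut development, had the highest level. It was at 8.94, 7.34 and 8.75 FPKM in KO libraries, 8.73, 9.12 and 9.44 FPKM in Het libraries and 8.17, 9.22 and 9.78 FPKM in WT libraries. The groups overlapped, and its SD over the 9 libraries was 8.21% of its mean, where counting alone would give 5.38%. Even this level stood above that of only 42.5% of the 13306 genes tested. Hoxb2 (chromosome 11, 96212946 to 96215328, plus strand), a hindbrain patterning gene, was at 8.26, 5.93 and 6.19 FPKM in KO, 7.54, 6.95 and 8.62 FPKM in Het and 8.58, 9.05 and 6.65 FPKM in WT libraries. Those groups overlapped as well, and Hoxa5 was above Hoxb2 in 8 of 9 libraries.

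Below these came Hoxb3 with a mean of 4.84 FPKM over the 9 libraries, Hoxb5 with 4.29, Hoxb7 with 3.87, Hoxa3 with 3.71, Hoxa2 with 3.55, Hoxd8 with 3.16 and Hoxb4 with 3.15. Hoxb6 at 2.95, Hoxa4 at 2.92 and Hoxc4 at 2.80 FPKM followed, then Hoxc5 at 1.53, Hoxc6 at 1.20 and Hoxb8 at 1.05. Hoxd4 at 0.991 and Hoxc8 stood just below 1 FPKM and were tested too. Each neighbouring pair in this order overlapped in range across libraries. Within libraries, Hoxb2 was above Hoxb3 and Hoxc4 above Hoxc5 in 9 of 9. By contrast Hoxb7 was above Hoxa3 in only 3 of 9 and Hoxd8 above Hoxb4 in 3 of 9.

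Some of these levels are uncertain because members share sequence or position. The Hoxa3 locus spans Hoxa4, Hoxa5 and Hoxa6, and the Hoxd3 locus spans Hoxd4, and whether counting used strand is not given in the sources used here. Of all 50-base stretches in the GENCODE transcripts of Hoxb8, 37.4% also occurred in another gene, as did 27.2% of those of Hoxb7. In GENCODE the Hoxb7 gene starts at 96145571, before the Hoxb8 end at 96146639. The Hoxb7 locus listed with the FPKM starts at 96147960 and overlaps no other listed gene. The shares of Hoxb7 and Hoxb8 may therefore not apply to their FPKM. The shares were 42.2% for Hoxd4 and 20.5% for Hoxd3, and 9.27% for Hoxa2 and 4.16% for Hoxa3. In each of these pairs the partner was the only other Hox member with shared stretches, but the shares also count genes outside the Hox clusters.

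By cluster, B gave the largest part of the summed Hox FPKM, with a median of 46.0% over the libraries. The A cluster gave 33.3%, the C cluster 11.7% and the D cluster 9.22%. Paralog group 5, with 3 members, had the highest sum, 14.7 ± 1.42 FPKM (SD, n = 9), made mostly by Hoxa5. Group 2, with 2 members, had 11.1 ± 1.21 and group 4, with 4 members, had 9.86 ± 1.48 FPKM. Group 3, with 3 members, had 8.99 ± 1.26 FPKM, whereas group 1, also low in number and with 3 members, had 0.738 ± 0.160 FPKM. These sums are not divided by the number of members, so their order depends in part on it. The order thus did not simply follow the paralog number: levels were low at both ends.

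**Figure D2:**
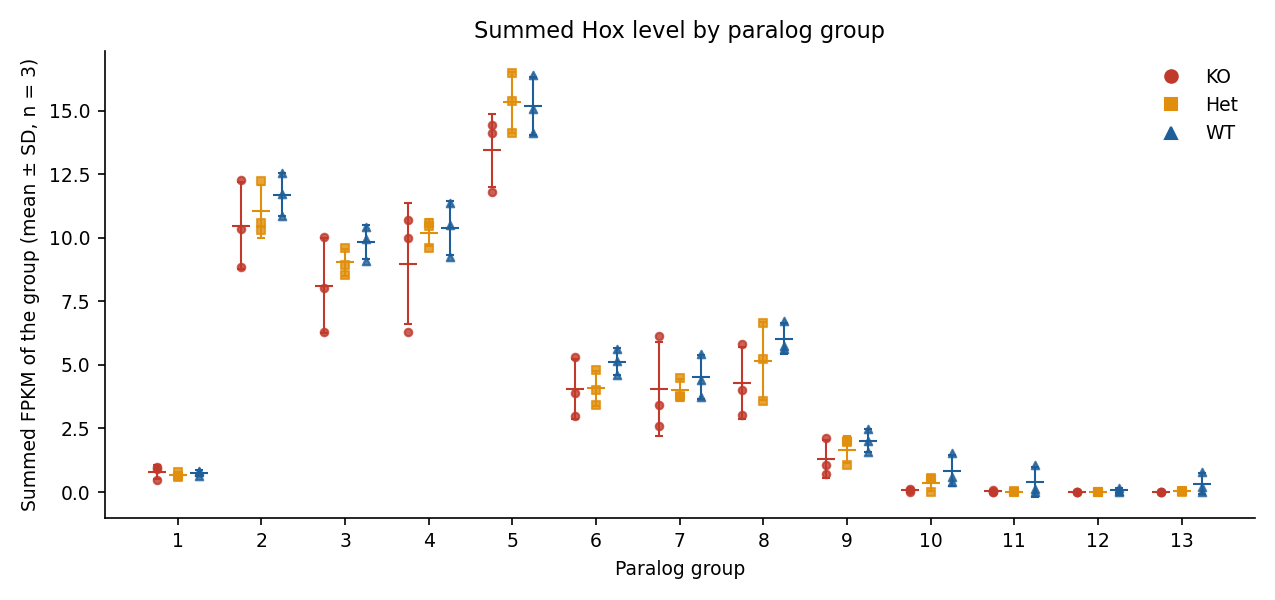
Summed FPKM of the members of each paralog group (horizontal axis, 1 to 13), with points for libraries and bars for the mean ± SD of 3 KO, Het and WT libraries. Groups 2 to 5 are the highest, group 1 is low, and groups 10 to 13 are close to 0.

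Groups 6 to 8 had 4.43, 4.19 and 5.15 FPKM on average, group 9 had 1.66 and group 10 had 0.426. Groups 1 to 5 together took 67.8% to 78.4% of the Hox FPKM of a library, groups 6 to 8 took 20.0% to 25.4%, and groups 9 to 13 took 1.65% to 8.17%. The highest member of group 9 was Hoxd9, a gene of trunk and limb patterning, with a mean of 0.798 FPKM. None of the 16 members of groups 9 to 13 had a higher mean.

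Several of the high-numbered genes were highest in 1 library, WT replicate 2. This was not particular to them, as Hoxb2, Hoxb3, Hoxb5, Hoxb6, Hoxc4 and Hoxd8 were highest there too. Of the high-numbered genes, Hoxb9 was highest in KO replicate 1, Hoxc9 in Het replicate 1 and Hoxc11 in WT replicate 3. The share of all genes highest in WT replicate 2 was not computed. Hoxd13, a gene of digits and the urogenital tract, was at 0.0170, 0 and 0 FPKM in KO libraries, 0.0423, 0.0354 and 0 FPKM in Het libraries and 0.0178, 0.659 and 0.128 FPKM in WT libraries. Hoxa11, a limb and kidney gene, was at 0.0757, 0 and 0 FPKM in KO, 0 in all 3 Het libraries, and 0, 0.787 and 0.0205 FPKM in WT. Hoxa10, a uterus and limb gene, was at 0.0789, 0 and 0 FPKM in KO, 0.322, 0 and 0.171 FPKM in Het and 0.129, 0.802 and 0.284 FPKM in WT. In each case WT replicate 2 was the highest of the 9, and the same held for Hoxd12, the highest of its group at 0.177 FPKM in that library. The bounds imply 33.0 fragments of Hoxd13, 33.7 of Hoxa11 and 33.4 of Hoxa10 there, so these are few reads but not single ones. Summed over groups 10 to 13, the level was 0.217, 0 and 0.0908 FPKM in KO and 0.631, 0.0354 and 0.569 FPKM in Het libraries. In WT libraries it was 0.413, 3.57 and 0.958 FPKM. Each WT library was above each KO library, with 0.413 FPKM in WT replicate 1 against 0.217 FPKM in KO replicate 1, while Het and WT overlapped. This difference rests on few fragments and was not tested, and no share of all genes stands beside it. The summed level of 6 kidney and urogenital markers was at most 1.54 FPKM in any library and 0.878 FPKM in WT replicate 2. The sum of 5 liver markers was highest in WT replicate 2, at 545 FPKM, against 266 to 519 FPKM in the other libraries. Alb, the serum albumin gene, was at 36.4 FPKM there and at 1.68 to 5.04 FPKM in the others, and Apoa1, an apolipoprotein gene, at 7.43 FPKM there and 1.07 to 1.48 FPKM in the others. Gkn1, a stomach gene, was at 0.708 FPKM there and at 0 to 0.0454 FPKM in the others. Alb, Apoa1 and Gkn1 were picked for these values. Of the other liver markers, Afp was also highest in WT replicate 2, at 40.6 FPKM. Ttr was highest in WT replicate 3, at 490 FPKM against 458 FPKM in WT replicate 2. Fgb was highest in WT replicate 1, at 1.83 FPKM against 1.59 FPKM. The sum of 8 gut and stomach markers was highest in Het replicate 2, at 57.9 FPKM, against 51.2 FPKM in WT replicate 2. The part of other tissue in the result was not tested.

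**Figure D3:**
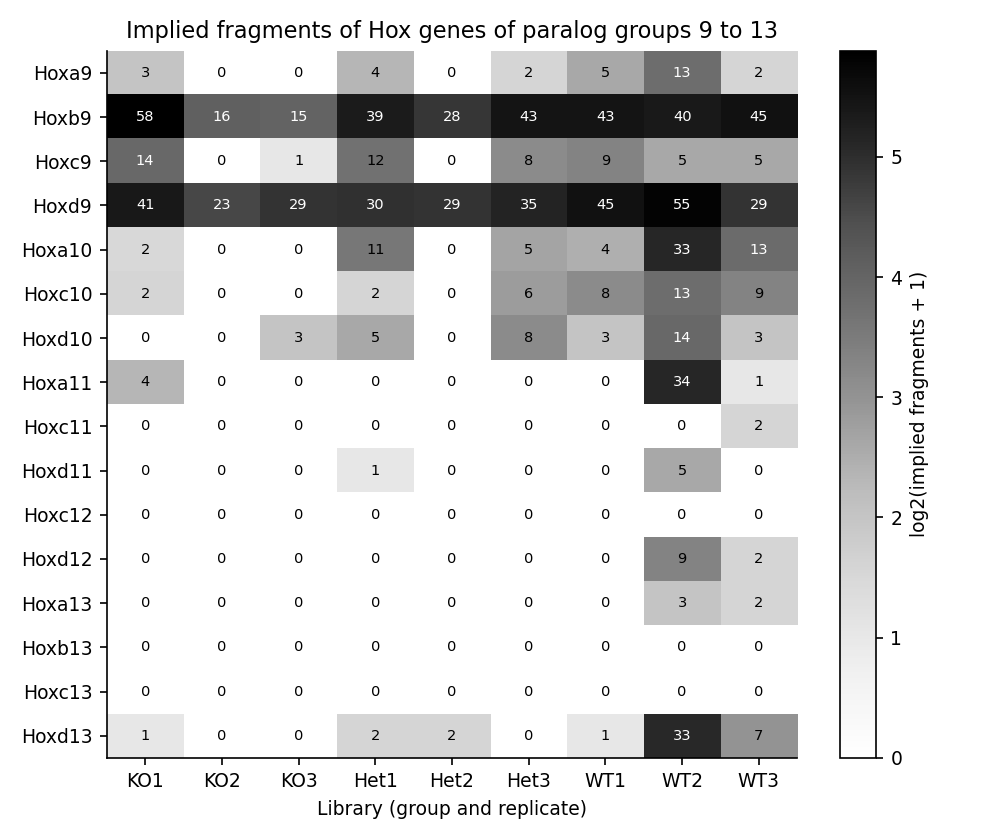
Implied fragments of the 16 Hox genes of paralog groups 9 to 13 (rows) in each library (columns); numbers are rounded fragments and darker cells mean more, on a log2(fragments + 1) scale. Hoxb9 and Hoxd9 have fragments in every library, and WT replicate 2 is the highest for Hoxa10, Hoxa11, Hoxd12 and Hoxd13.

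The summed Hox level was 68.0, 43.0 and 55.9 FPKM in KO libraries, 61.4, 58.5 and 64.9 FPKM in Het libraries and 65.3, 74.1 and 62.2 FPKM in WT libraries. The means were 55.6 ± 12.5 for KO, 61.6 ± 3.21 for Het and 67.2 ± 6.15 FPKM for WT (SD, n = 3 each). KO replicate 1 was above 2 of the 3 WT libraries, so the groups overlapped, and KO replicate 2 was the lowest of the 9. The sum of 19 mesenchyme markers, which include collagen genes and the mesenchymal factor Tcf21, was 2186, 1507 and 1688 FPKM in KO, 1996, 1710 and 2040 FPKM in Het and 2245, 2569 and 1909 FPKM in WT libraries. Per 1000 mesenchyme FPKM, the Hox sum was 31.1, 28.5 and 33.1 in KO, 30.8, 34.2 and 31.8 in Het and 29.1, 28.8 and 32.6 in WT. On that scale the groups overlapped, and KO replicate 2 was the lowest and Het replicate 2 the highest.

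**Figure D4:**
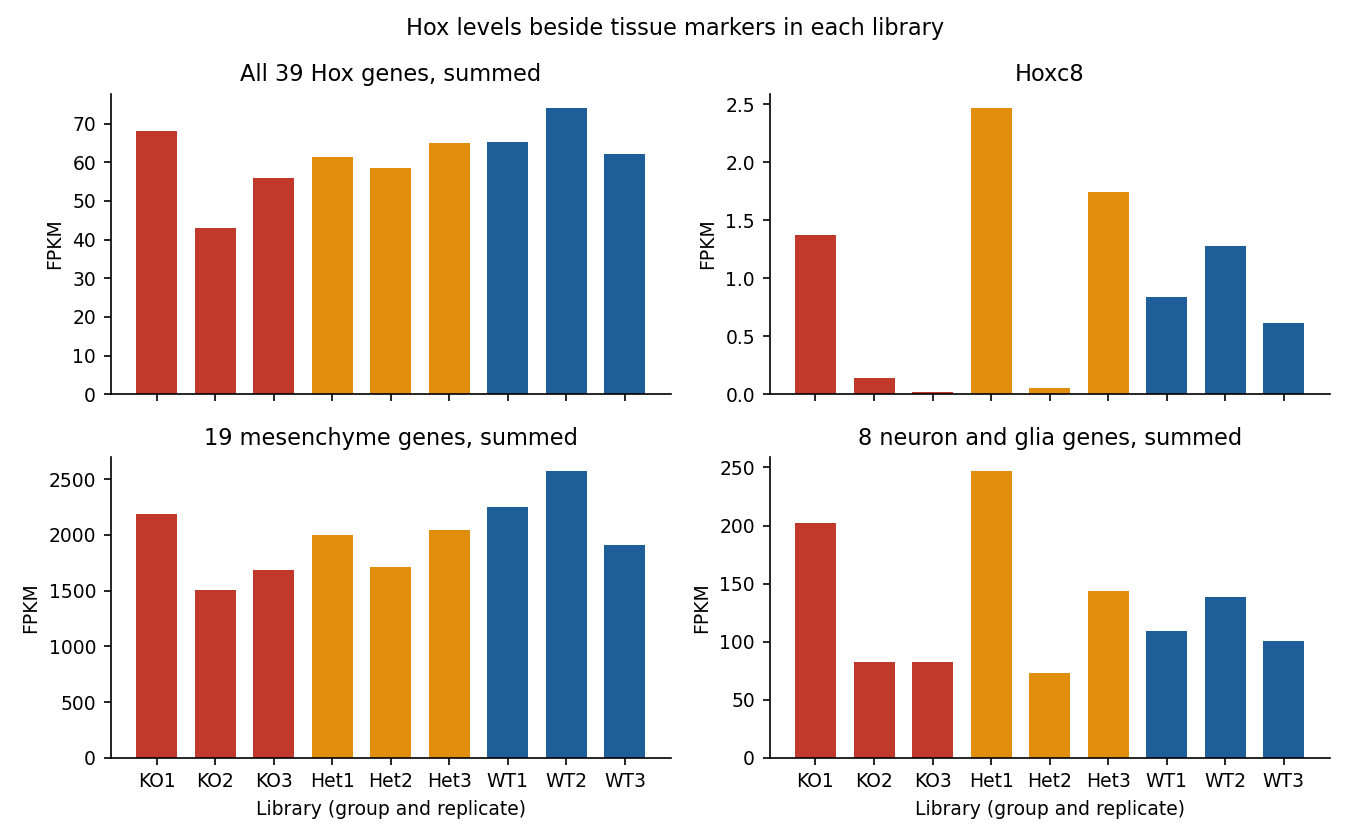
FPKM in each library (KO red, Het orange, WT blue) of all 39 Hox genes summed, of Hoxc8, of 19 mesenchyme genes summed and of 8 neuron and glia genes summed. KO replicates 2 and 3 and Het replicate 2 are the 3 lowest libraries in each of the 4 panels.

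In proportion, the A and B cluster sums differed least between groups. The A cluster had 19.4 ± 3.32 in KO, 21.0 ± 0.851 in Het and 21.7 ± 1.20 FPKM in WT, and the B cluster 26.2 ± 5.84 in KO, 28.1 ± 1.69 in Het and 30.7 ± 3.32 FPKM in WT (SD, n = 3 each). The D cluster was at 5.93, 3.65 and 5.35 FPKM in KO, 5.92, 4.29 and 5.21 FPKM in Het and 6.02, 8.52 and 6.13 FPKM in WT libraries. Each WT library was above each KO and Het library, but narrowly, with 6.02 FPKM in WT replicate 1 against 5.93 FPKM in KO replicate 1. As a share of the Hox sum the groups overlapped, with 9.57% in KO replicate 3 and 9.63% in Het replicate 1 against 9.22% in WT replicate 1. The difference in this sum was not tested, and no share of all genes stands beside it. Hoxd8 was the largest part of the D cluster sum in every library.

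In proportion to its mean, the C cluster varied most within groups. It was at 7.95, 3.09 and 4.33 FPKM in KO, 8.56, 4.13 and 9.17 FPKM in Het and 8.20, 9.66 and 5.93 FPKM in WT libraries. Hoxc8 (chromosome 15, 102820970 to 102824685, plus strand), a gene of the thoracic spinal cord and skeleton, had the largest spread relative to counting error of the 39 members. It was at 1.37, 0.141 and 0.0222 FPKM in KO libraries, 2.47, 0.0558 and 1.74 FPKM in Het libraries and 0.843, 1.28 and 0.617 FPKM in WT libraries. Its SD was 88.6% of its mean, 6.05 times the 14.7% from counting. KO replicates 2 and 3 and Het replicate 2 held 8, 1 and 3 implied fragments, against 32 or more in each other library.

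Hoxc9 and Hoxc10, genes of the lower trunk, named here after their values were seen, were low in those 3 libraries too. Hoxc9 was at 0.356, 0 and 0.0316 FPKM in KO, 0.380, 0 and 0.245 FPKM in Het and 0.240, 0.149 and 0.137 FPKM in WT libraries. Hoxc10 was at 0.0451, 0 and 0 FPKM in KO, 0.0562, 0 and 0.163 FPKM in Het and 0.189, 0.345 and 0.219 FPKM in WT. Hoxc6 had its 3 lowest values in these libraries as well.

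The sum of 8 neuron and glia markers was 202, 82.4 and 82.8 FPKM in KO libraries, 247, 72.8 and 144 FPKM in Het libraries and 109, 139 and 101 FPKM in WT libraries. Stmn2 and Tubb3, a neuronal tubulin, took much of its spread. Tubb3 was at 68.9, 14.2 and 14.6 FPKM in KO and 88.7, 14.4 and 34.5 FPKM in Het libraries. In WT libraries it was at 16.96, 32.8 and 17.9 FPKM. Stmn2 ran from 18.3 FPKM in Het replicate 2 to 101 FPKM in Het replicate 1. The markers did not all move together. Ret was at 24.4 and 22.5 FPKM in KO replicates 2 and 3 and lowest in WT replicate 2, at 16.3 FPKM. Erbb3 was at 10.7 FPKM in KO replicate 2 and lowest in WT replicate 2, at 8.35 FPKM. None of the 8 markers was at 0 in all libraries, and endocrine cells are known to transcribe some neuronal genes too. The 3 libraries lowest in Hoxc8 were the 3 lowest in this sum and also the 3 lowest in the mesenchyme sum. The part of either tissue in the Hoxc8 result was not tested.

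Of the 17 tested members, 0 differed between KO and WT at an adjusted p under 0.05 in limma, as was the case for 0% of all 13306 genes. At an unadjusted p under 0.05 there were 3 members, all lower in KO, where 8.39% of all genes passed in either direction and 5.79% passed with a lower level in KO. That count was 7 without KO replicate 1, 6 without both KO replicate 1 and Het replicate 1, 1 without KO replicate 3 or WT replicate 1, and 0 without KO replicate 2, without WT replicate 2 or with sex in the model. Of the 17, 16 had a log2 change below 0, against 58.5% of all genes, and the median was -0.155 against -0.026. After quantile normalization 13 of the 17 were below 0, with a median of -0.072, and the median was -0.29 without KO replicate 1 and -0.095 without KO replicate 2. All changes were computed from log2(FPKM + 1), where changes of low genes come out too small.

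Hoxd8 (chromosome 2, 74543546 to 74545364, plus strand), a trunk patterning gene, had the smallest p of the 17. It was at 3.24, 2.30 and 3.13 FPKM in KO libraries and 3.63, 4.25 and 3.84 FPKM in WT libraries. All 3 KO libraries lay below all 3 WT libraries; Hoxd8 was 1 of 17 members with that pattern, which 6.64% of all genes showed, while 0 members lay wholly above WT, as did 4.55% of all genes. Its log2 change was -0.34 (SE 0.12, limma adjusted p = 0.576), and -0.41 without both KO replicate 1 and Het replicate 1 (limma adjusted p = 0.151). Without KO replicate 2 it was -0.23. Per 1000 mesenchyme FPKM, Hoxd8 was 1.48, 1.53 and 1.86 in KO and 1.62, 1.66 and 2.01 in WT libraries, and these overlapped.

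Hoxb3 (chromosome 11, 96184440 to 96209244, plus strand), a gene of the hindbrain and pharyngeal arches, was at 5.01, 3.20 and 4.19 FPKM in KO and 5.72, 5.93 and 4.88 FPKM in WT libraries. KO replicate 1 was above WT replicate 3, and the log2 change was -0.35 (SE 0.14, limma adjusted p = 0.576), or -0.22 without KO replicate 2. Hoxc6 (chromosome 15, 102839993 to 102842312, plus strand), a thoracic patterning gene, was at 1.52, 0.466 and 0.483 FPKM in KO and 1.89, 1.60 and 1.41 FPKM in WT. Its log2 change was -0.57 (SE 0.24, limma adjusted p = 0.576), and KO replicate 1 was again within the WT range. With a pseudocount of 0.1 FPKM its log2 change was -1.08. Hoxa2, a hindbrain and skeletal gene, was the 1 member with a positive change, 0.021 (SE 0.13, limma adjusted p = 0.958). Its direction turned with sex in the model (-0.11) and without KO replicate 1 (-0.032), KO replicate 3 (-0.052) or WT replicate 1 (-0.053). Hoxc8 had the widest error, with -0.43 (SE 0.45, limma adjusted p = 0.737), and leaving out 1 library moved it between -0.81 (without KO replicate 1) and -0.20 (without KO replicate 3). It was -0.28 without KO replicate 2 and -1.48 with a pseudocount of 0.1 FPKM.

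**Figure D5:**
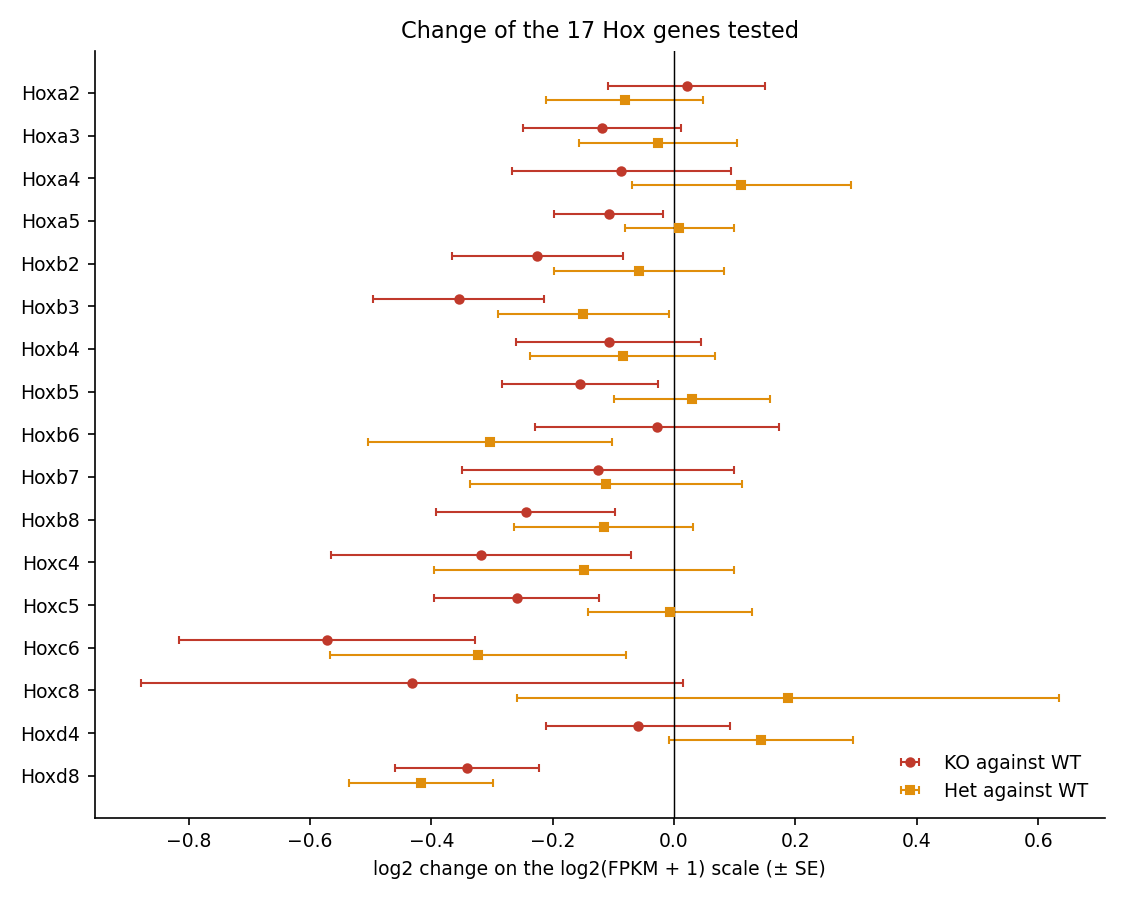
Log2 change of the 17 tested members on the log2(FPKM + 1) scale, for KO against WT (circles) and Het against WT (squares), with bars of 1 SE from limma. No member passed an adjusted p of 0.05, and the points of Hoxd8 lie below 0 in both comparisons, which share the WT libraries.

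The mesenchyme markers were also lower on average in KO: 19 of 19 tested had a log2 change below 0 against WT, with a median of -0.36, and 0 passed the adjusted threshold in limma, with 4 at an unadjusted p under 0.05, where all genes had 58.5% below 0 and 8.39% at that p. Other lists differed in direction too, with 0 genes past the adjusted threshold in limma: 7 of 7 endothelial genes were below 0 (median -0.20), as were 5 of 5 macrophage genes (median -0.39) and 10 of 11 endocrine genes (median -0.33), while 7 of 7 acinar genes were above 0 (median 0.23). At an unadjusted p under 0.05 these lists had 3, 3, 2 and 2 genes. The part of these cell types in the Hox result was not tested. A permutation of 3 libraries against 3 cannot go below p = 0.1.

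In Het against WT, which shares its WT libraries with the comparison above, 0 of 17 members passed in limma, again with 0% of all genes. At an unadjusted p under 0.05 there was 1, Hoxd8, where 3.92% of all genes passed and 2.58% passed with a lower level in Het; without Het replicate 2 there were 2. It was at 2.98, 2.36 and 2.69 FPKM in Het libraries and 3.63, 4.25 and 3.84 FPKM in WT libraries, with no overlap, a pattern shown by 7.05% of all genes. Members lying wholly above WT in FPKM numbered 0, against 3.54% of all genes. The log2 change of Hoxd8 was -0.42 (SE 0.12, limma adjusted p = 0.945). Per 1000 mesenchyme FPKM it was 1.49, 1.38 and 1.32 in Het and 1.62, 1.66 and 2.01 in WT, so each Het library stayed below each WT library. On the same scale Hoxd4 was at 0.749, 0.540 and 0.514 in Het and 0.407, 0.361 and 0.511 in WT. Each Het library was above each WT library, by as little as 0.514 against 0.511, although the FPKM of Hoxd4 overlapped. The mesenchyme sum averaged 1915 FPKM in Het and 2241 FPKM in WT, and dividing by it raises Het relative to WT on average. The share of all genes without overlap was not computed on this scale, so the patterns of Hoxd8 and Hoxd4 on it have no background beside them.

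Of the other members, Hoxb6, a thoracic patterning gene, was at 1.62, 3.50 and 2.32 FPKM in Het and 2.55, 3.87 and 3.26 FPKM in WT libraries, with a log2 change of -0.30 (SE 0.20, limma adjusted p = 0.945). That change was -0.51 without Het replicate 2, -0.20 without WT replicate 2 and -0.12 without Het replicate 1. Hoxc6 had -0.32 (SE 0.24, limma adjusted p = 0.945), or -0.12 without Het replicate 2 and -0.57 with a pseudocount of 0.1 FPKM. Hoxd4 and Hoxa4, genes of the neck vertebrae, had 0.14 (SE 0.15, limma adjusted p = 0.947) and 0.11 (SE 0.18, limma adjusted p = 0.963). Hoxd4 had 0.034 without Het replicate 1, 0.22 without Het replicate 2 and 0.25 with a pseudocount of 0.1 FPKM, and Hoxa4 had -0.030 without Het replicate 2 and 0.23 without Het replicate 3. Hoxc8 had 0.19 (SE 0.45, limma adjusted p = 0.976), but -0.16 without Het replicate 1 and 0.70 without Het replicate 2. Of the 17, 12 were below 0, against 57.1% of all genes, and the median was -0.081 against -0.017. The median was -0.030 without Het replicate 2 and turned to 0.011 without WT replicate 2.

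KO against Het gave 0 of 17 members in limma at the adjusted threshold, with 0% of all genes. At an unadjusted p under 0.05 it gave 0, where 2.22% of all genes passed and 0.969% passed with a lower level in KO. It gave 4 without KO replicate 1, 2 without Het replicate 2 and 1 without Het replicate 1. Hoxc5, a cervical and thoracic patterning gene, was at 1.33, 0.9996 and 1.39 FPKM in KO and 1.62, 1.42 and 1.97 FPKM in Het libraries, without overlap, which 2.43% of all genes showed; 0 members lay wholly above Het, as did 3.48% of all genes. Its log2 change was -0.25 (SE 0.14, limma adjusted p = 0.9998), or -0.40 with a pseudocount of 0.1 FPKM. Hoxb3 had -0.21 and Hoxb5 -0.18, while Hoxb6 had 0.28, Hoxa2 0.10 and Hoxd8 0.076, each with a limma adjusted p of 0.9998. Leaving out 1 library moved these between -0.33 and -0.069 for Hoxb3, -0.29 and -0.12 for Hoxb5, 0.089 and 0.48 for Hoxb6, 0.030 and 0.23 for Hoxa2, and 0.010 and 0.19 for Hoxd8. The values nearest 0 came without KO replicate 2 for Hoxb3, Het replicate 3 for Hoxb5, Het replicate 1 for Hoxb6, KO replicate 3 for Hoxa2 and KO replicate 1 for Hoxd8. Of the 17, 14 were below 0, against 55.3% of all genes, and the median was -0.168 against -0.011. It was -0.036 without KO replicate 2 and -0.25 without KO replicate 1. The largest in size was Hoxc8 with -0.62 (SE 0.45), which also had the largest error and was at -0.28 without Het replicate 1 and -1.14 without Het replicate 2, and at -1.36 with a pseudocount of 0.1 FPKM.

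Several partners and upstream regulators of Hox proteins had higher levels than any Hox gene. The cofactors had 8 of 9 members tested, with Meis1 at a mean of 32.5, Meis2 at 31.0 and Pbx2 at 31.0 FPKM over the 9 libraries. In KO against WT, 0 of the 8 passed in limma and 3 had an unadjusted p under 0.05, all lower in KO, where 8.39% of all genes passed at that p and 5.79% passed and were lower. The median log2 change of the cofactors was -0.17, against -0.026 for all genes. The retinoic acid pathway had 15 of 19 tested, led by Rbp4, a retinol carrier, at 144 FPKM, Aldh1a1, which makes retinoic acid, at 62.2 and Dhrs3, a retinal reductase, at 32.0. Of these 15, 0 passed in KO against WT, 4 had an unadjusted p under 0.05 and 13 were below 0, against 8.39% and 58.5% of all genes. Their median was -0.21, against -0.026 for all genes. Chromatin regulators of the clusters, such as Polycomb and Mll genes, had 22 tested, of which 0 passed in KO against WT. In that comparison 1 had an unadjusted p under 0.05, with a higher level in KO. Of the 22, 14 were below 0, with a median of -0.046, against the same shares and median of all genes. In Het against WT, 0 genes of these 3 lists passed in limma, and at an unadjusted p under 0.05 there were 0 cofactors, 1 retinoic acid gene and 0 chromatin regulators, against 3.92% of all genes. In KO against Het, 0 passed as well, and the unadjusted counts were 0 cofactors, 0 retinoic acid genes and 2 chromatin regulators, against 2.22% of all genes.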

How the data were processed

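RNA from whole pancreas was measured in 9 libraries made with a TruSeq kit, per the labels' protocols. The series' design text names TopHat 2.0.4 (4 mismatches, 10 hits) on mm9, and the submitters' processing notes add CASAVA 1.8.2, Cufflinks and DESeq. The deposited values are FPKM with lower and upper bounds, per the file headers; the annotation and strand setting are not given in the sources. Symbols with several loci (248, none of them Hox) were summed. The 4 symbols with a locus of status HIDATA, which has too many fragments for an estimate, were removed. Loci of status FAIL (4 to 14 per library) or LOWDATA were kept with their listed FPKM. Fragments were implied by the upper bound, taken as 2 standard errors above the FPKM; below 500 fragments, 73.5% to 74.44% came out whole within 0.05, so no count test was run. Tests used limma 3.58.1 (R 4.3.3) on log2(FPKM + 1) with an intensity trend, all 9 libraries and genotype alone, for 13306 genes at 1 FPKM in at least 3 libraries, two-sided, with Benjamini-Hochberg adjustment at 0.05. The script was tested on simulated data. The named members are the 3 higher and 3 lower with the smallest p in each comparison; Hoxc8 was added after its values were seen. Members and lists were chosen with earlier results of these data known. Alternatives were another pseudocount, filter and normalization, a replicate block, sex, fewer groups and libraries left out.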

Additional observations from a re-analysis of the deposited data

How the results depend on the processing

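In no setting run did a Hox member pass the adjusted threshold. Over all genes, KO against WT called 4 without both KO replicate 1 and Het replicate 1 (chosen after seeing the data), 1 with only the 2 groups and 0 to 1 with a library left out. Het against WT called 5, 6 and 0 to 7 in those settings and KO against Het called 5 and 0 to 4 without both and with a library left out. Hox members at an unadjusted p under 0.05 in KO against WT numbered 3, but 6 with no filter, 5 with a filter at 0.1 FPKM, 0 with sex as a covariate and 6 without both; leaving out 1 library gave 0 to 7, with 7 without KO replicate 1, 0 without KO replicate 2 or WT replicate 2, and 1 without KO replicate 3 or WT replicate 1. Het against WT gave 3 with no filter, 2 with the 0.1 filter and 1 to 2 with a library left out. KO against Het gave 1 without both and 0 to 4 with a library left out. Directions turned for Hoxa2 in KO against WT (-0.11 with sex, -0.032 without both, -0.053 to 0.15 with a library left out) and in KO against Het (-0.031 with sex), for Hoxc8 in Het against WT (-0.11 at pseudocount 0.1, -0.16 without both, -0.16 to 0.70 with a library left out) and for Hoxa4 there (-0.030 to 0.23 with a library left out). The cause was not tested. Hoxc8 in KO against WT had -0.81 without KO replicate 1 and -1.48 at pseudocount 0.1.

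Same-numbered libraries correlated at -0.19 to 0.29 in their deviations, with a median of 0.087 and over 0.1 in 4 of 9 pairs. Pairs with different numbers correlated at -0.34 to 0.28. These ranges overlap, so whether same-numbered libraries share a litter or batch cannot be told from them. With the replicate block, Het against WT called 1 gene and the Hox count called stayed 0. Rescaled to equal FPKM totals, the summed Hox level was 104 in KO, 93.5 in Het and 128 in WT; Het replicate 3 was at 55.3 there, where Mir682 is listed at 639705 FPKM.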

Other observations

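Several genes next to the Hox clusters had higher levels than any Hox gene. Of 11 tested flanking genes, 9 had a log2 change above 0 in KO against WT, with a median of 0.064, against 5521 of all 13306 genes and a median of -0.026. In limma 0 passed, and 1 had an unadjusted p under 0.05, as did 8.39% of all genes. Atp5g1, a subunit of the mitochondrial ATP synthase, averaged 167, Hibadh, an enzyme of valine breakdown, 76.1 and Mtx2, a mitochondrial import protein, 61.6 FPKM over the 9 libraries. Evx2, a homeobox gene at the end of the D cluster, was listed at 0 in all of them. Of 8 noncoding genes of the clusters in the tables, 6 were microRNA precursors listed at 0 throughout. Mira, the 1 tested, was at 1.91, 0.378 and 2.06 FPKM in KO libraries, 1.35, 1.19 and 2.07 FPKM in Het libraries and 1.86, 1.49 and 1.44 FPKM in WT libraries, with KO replicate 2 the lowest of the 9. Among the ParaHox genes, relatives of the Hox clusters, only Pdx1, the pancreas master regulator, was tested, and its log2 change in KO against WT was 0.11.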
